A study of Bos taurus with 20 samples.

Results

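The paraoxonase family was described in the skin of polled cattle, which grow no horns, of scurred cattle, whose small horns are not fused to the skull, and of horned cattle. It has 3 members, PON1, PON2 and PON3, out of 14526 gene symbols with a probe on the array. The probe of PON3 was chosen by its name on the array, after its brightness in these animals was known. The probes of PON1 and PON2 were added because the array's annotation names paraoxonase 1 or 2, and each member had 1 probe spotted 2 times. Of the 3 members, 2 (PON3 and PON2) passed the filter on dim probes and were tested, whereas PON1 did not.

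RNA came from skin biopsies that held epidermis, dermis and dermal connective tissue. Biopsies of the horn-forming site were taken from 4 polled animals (1 male, 3 females), 4 scurred animals (3 males, 1 female) and 3 horned animals (2 males, 1 female), 11 in all, each of which counts as 1 replicate. For 2 of them, polled replicate 3 and scurred replicate 2, skin from elsewhere on the skull served as the control site. All samples are labelled as skin of Bos taurus and no treatment is named. Breed and age are not given in the sources used here. The 20 two-colour arrays lay on 5 chips. On each of chips 1 to 4 every pair among 1 polled, 1 scurred and 1 horned animal was hybridised, polled against horned in both dye orders, and chip 5 set horn site against control site within an animal. Horned replicate 2, a female, was used on chips 2 and 4, so both chips share her RNA. Polled and scurred animals of a chip were of opposite sex, so horn type and sex overlap and the fit carries a term for sex.

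Paraoxonases are calcium-dependent hydrolases whose shared activity is the opening of lactone rings. PON1 is made mainly in the liver, is carried in blood on high-density lipoprotein (HDL), and also cleaves aryl esters and the organophosphate paraoxon, which gave the family its name. PON3 is likewise known from liver and HDL, hydrolyses lactones such as those of statin drugs, and is also found inside cells. PON2 is made in most tissues, stays inside cells, and is known for lowering oxidative stress and for cleaving the lactone signals of bacteria. These roles are known mainly from human and mouse.

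The 3 genes stand beside each other on bovine chromosome 4. In the RefSeq gene table of assembly ARS-UCD2.0, which was used only for names and for the order of genes, the order is SGCE, PEG10, PPP1R9A, PON1, PON3, PON2, ASB4, PDK4 and DYNC1I1, with unnamed and non-coding genes left out. The array probes are shown because each value below is the brightness of 1 of these oligonucleotides, and related genes could in principle bind the same one. Each is 60 bases long and is printed as the scanner files give it. No base is set in capitals, since no part of a probe is singled out.

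PON3 probe: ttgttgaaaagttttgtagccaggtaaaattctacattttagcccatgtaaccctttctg

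PON2 probe: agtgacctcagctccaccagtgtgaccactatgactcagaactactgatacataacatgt

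PON1 probe: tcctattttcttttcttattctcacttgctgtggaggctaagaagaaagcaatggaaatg

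The probes share no long stretch with each other. The longest run of identical bases was 5 between PON2 and PON3, 6 between PON1 and PON3 and 6 between PON2 and PON1. No other probe of the array shared 20 bases with any of the 3. The PON3 probe contains 35% G and C and was designed on a predicted, partial bovine mRNA called similar to paraoxonase 3. It carries the name LOC510953 in the files, and that gene identifier belongs to PON3 in the RefSeq table. The PON2 probe (45% G and C) was designed on the bovine PON2 mRNA. The PON1 probe (36.7% G and C) was designed on a cDNA fragment that the annotation calls similar to human PON1, so it is the least certain of the 3 assignments.

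PON3 was bright in the skin of all polled animals and near background in horned skin. Levels are normalised log2 values of 1 dye channel, averaged over dyes within an animal, and are compared only within a probe. PON3 had log2 levels of 8.04, 8.72, 9.90 and 8.24 in polled replicates 1 to 4. It had 6.07, 6.85, 6.50 and 6.38 in scurred replicates 1 to 4, and 6.09, 6.27 and 6.53 in horned replicates 1 to 3. Every polled animal lay above every scurred and every horned animal, and polled replicate 3 was the highest. The scurred and horned ranges overlapped. The means were 8.73 ± 0.83 in polled (SD, n = 4), 6.45 ± 0.32 in scurred (SD, n = 4) and 6.30 ± 0.22 in horned skin (SD, n = 3). In that order, the scurred and horned means differed by less than 1 SD. Since these levels chose the probe, they are given as a description. Polled levels all lay above horned levels at 4.63% of the 16309 probes tested, and all above scurred levels at 1.28%.

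**Figure D1:**
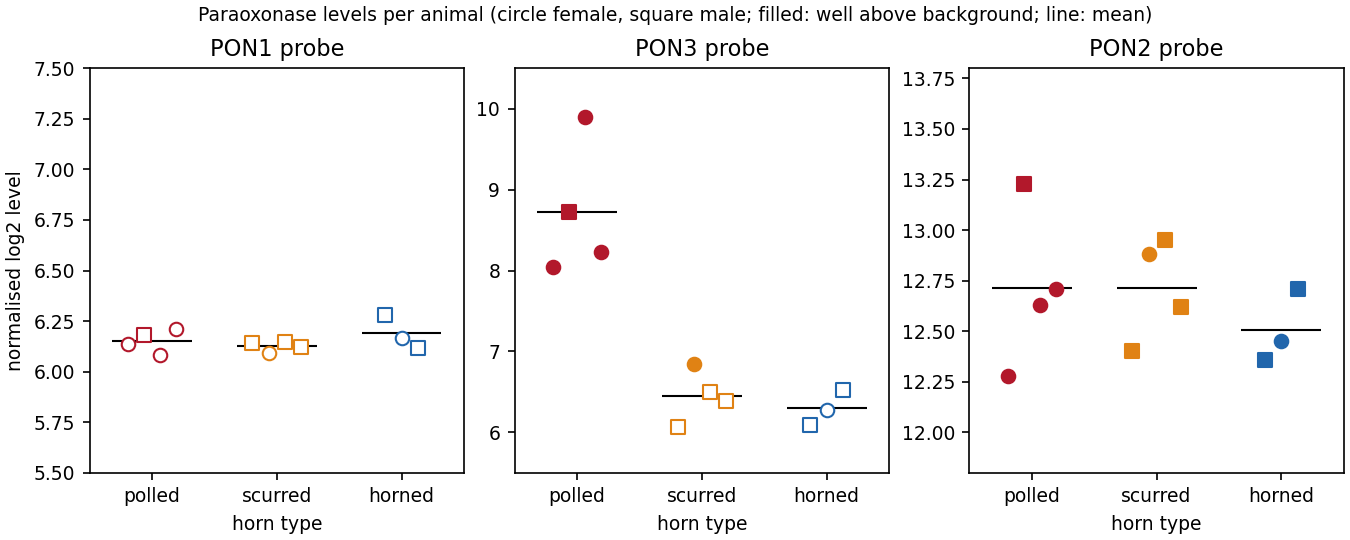
Normalised log2 level (vertical axis, a separate scale per probe) of PON1, PON3 and PON2 in each polled, scurred and horned animal, with circles for females, squares for males, and filled symbols where an animal's measurements were mostly well above background. Horizontal lines are group means; PON3 lies between 8.04 and 9.90 in polled animals and at 6.85 or below in the others, while the PON2 groups overlap and PON1 is open throughout.

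The raw brightness showed the same separation before any normalisation. The PON3 spots stood at 124 to 759 scanner units above the local background in the 12 polled measurements, with a median of 462. In scurred skin the 8 measurements lay between 9.10 and 119 (median 24.4), and in horned skin the 12 measurements lay between 4.92 and 38.5 (median 12.9). The scanner software marks a spot as well above background or not. PON3 was so marked in 12 of 12 polled measurements, in 2 of 8 scurred measurements and in 0 of 12 horned measurements. Both marked scurred measurements came from scurred replicate 2, the only scurred female. Horned replicate 2 is also a female, and PON3 was not well above background in any of her 6 measurements. Polled replicate 2 is the only polled male, and PON3 was well above background in 3 of his 3. Across all 21475 probes, PON3 was the only one well above background in every polled and in no horned measurement (0.00466%). That pattern is a way of choosing this probe and is read no further.

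**Figure D2:**
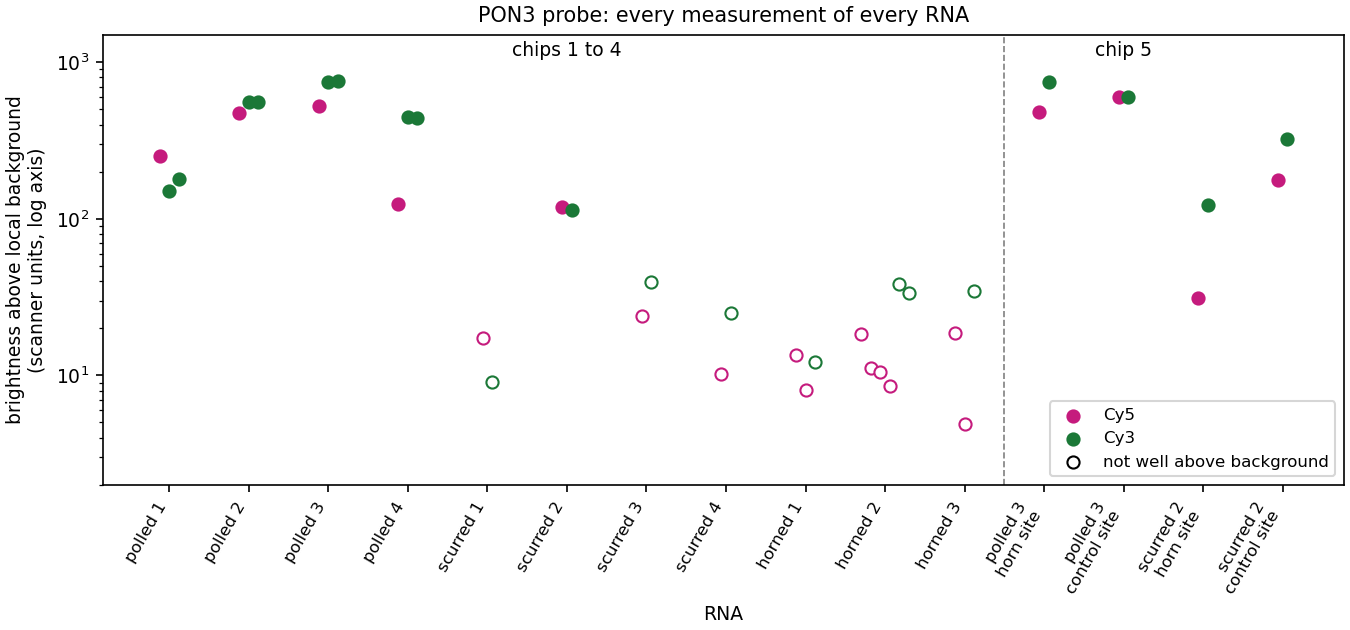
Brightness of the PON3 probe above local background (scanner units, log axis) in every measurement of every RNA, with Cy5 in magenta, Cy3 in green, and open symbols for measurements not well above background. Polled horn-site measurements reach 124 to 759 units on chips 1 to 4 and horned ones 38.5 at most, and all 8 measurements of chip 5, control sites included, are filled.

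Within chips, PON3 stood higher in each polled animal than in its horned partner. The log2 differences between the polled and the horned animal were 2.04, 2.59, 3.31 and 1.66 on chips 1 to 4, a mean of 2.40 ± 0.72 (SD, n = 4). Chip 1, whose scan day differs from that of the other chips, lay inside the range of the others. Both dye orders gave the same direction on every chip. With polled RNA in Cy5 the arrays gave 1.86, 2.54, 3.35 and 1.92 on chips 1 to 4, and with polled RNA in Cy3 they gave 2.17, 2.72, 3.25 and 1.30. On each chip the 2 dye orders differed by less than the SD between animals. The differences between the scurred and the horned animal were 0.025, 0.65, 0.088 and −0.16, a mean of 0.15 ± 0.35 (SD, n = 4), and they fell on both sides of 0. On the arrays that set scurred directly against polled RNA, the log2 ratios of scurred over polled were −2.05, −1.83, −3.23 and −1.91 on chips 1 to 4. Polled against horned and scurred against polled are the contrasts that chose the probe, so these values and their directions are given as a description.

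Because no horned measurement was well above background, the horned level was not measured, and a floor was set in its place. On each array the floor was the higher of the probe's own level and the lowest level that was well above background (mean log2 6.46). The mean polled level of 8.73 was 4.80-fold above it. That is a ratio of group means and not a lower limit for an animal, as polled replicate 4 differed by 1.66 log2 units from its horned partner. The floor is not a detection limit of this probe. The fit over all 11 animals, with chip sets that share a horned animal as blocks and a term for sex, gave 2.35 log2 units for polled minus horned (SE 0.39) and −2.15 for scurred minus polled (SE 0.37). These values describe the contrasts on which the probe was chosen, and it passed the filter through the 4 polled animals and scurred replicate 2, so neither an interval nor a p is given. Their size depends on how dim spots are treated. The scanner software's own log2 ratios of polled over horned were larger on every array, between 4.19 and 6.25, and the same fit on them gave 4.73. With a smaller constant added after background correction (10 in place of 50), the fit gave 3.19 for polled minus horned and −2.86 for scurred minus polled. Without polled replicate 2, the polled male, the fit gave 1.74 for polled minus horned and −1.404 for scurred minus polled. Scurred minus horned was 0.20 (SE 0.37) and 0.87 with the scanner's ratios, but horned and most scurred measurements were not well above background, so it is not a measured difference.

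The adjusted threshold of 0.05 was passed by 1 of 16309 probes between polled and horned (0.00613%), which was AIF1, a gene of macrophages. It was passed by 0% both between scurred and horned and between scurred and polled. PON3 thus did not pass, but these groups chose the probe, so that is not read as a test of it. At an unadjusted p under 0.05 there were 9.17%, 3.76% and 6.08% of probes in limma's tests of polled against horned, scurred against horned and scurred against polled. Without polled replicate 2 the shares were 2.23% for polled against horned and 1.58% for scurred against polled, and without chip 2 they were 1.62% and 1.13%. A probe past the adjusted threshold between polled and horned was found in 2 of the 15 fits that left out an animal or a chip (without polled replicate 1 or scurred replicate 1) and in none of the other 13.

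PON2 was bright in all skin samples and differed little between horn types. It had log2 levels of 12.28, 13.23, 12.63 and 12.71 in polled replicates 1 to 4. It had 12.4, 12.88, 12.95 and 12.62 in scurred replicates 1 to 4, and 12.36, 12.45 and 12.71 in horned replicates 1 to 3. The 3 ranges overlapped, and every one of the 32 measurements on chips 1 to 4 was well above background. The means were 12.71 ± 0.39 in polled (SD, n = 4), 12.71 ± 0.25 in scurred (SD, n = 4) and 12.5 ± 0.18 in horned skin (SD, n = 3). The polled animals ran in both directions against their horned partners, at −0.11, 0.80, −0.099 and 0.29 on chips 1 to 4. The scurred animals stood at 0.0092, 0.44, 0.26 and 0.14. On chip 2 the polled male was high on both dye orders, at 0.55 and 1.02.

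None of the PON2 differences passed in limma's moderated test, adjusted over all probes. Polled minus horned was 0.27 (SE 0.17, 95% interval −0.14 to 0.68, adjusted p 0.649). Scurred minus horned was 0.13 (SE 0.17, 95% interval −0.26 to 0.52, adjusted p 0.9998). Scurred minus polled was −0.14 (SE 0.17, 95% interval −0.54 to 0.26, adjusted p 0.936). Without polled replicate 2 the polled minus horned value was 0.012. Scurred minus horned was −0.0097 without scurred replicate 2, and scurred minus polled was 0.18 without polled replicate 2. The intervals leave room for a log2 difference of 0.68 in PON2.

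**Figure D3:**
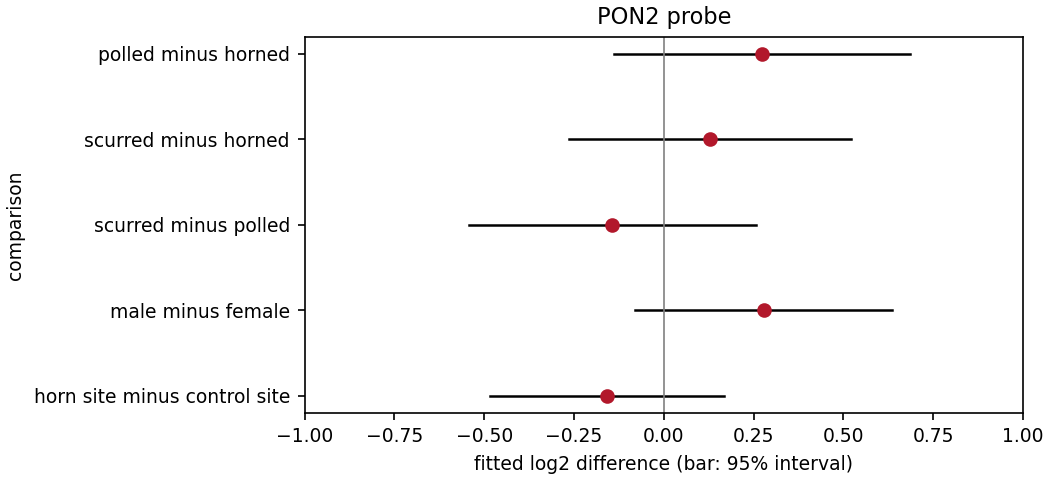
Fitted log2 differences of the PON2 probe (points, horizontal axis) with 95% intervals (bars) in 5 comparisons, one per row. Every interval includes 0, and the widest reach on the positive side is that of polled minus horned (−0.14 to 0.68).

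PON1 was not well above background in this skin. Its log2 levels lay between 6.08 and 6.21 in polled, between 6.09 and 6.15 in scurred and between 6.12 and 6.28 in horned animals, with means of 6.15 ± 0.056 (SD, n = 4), 6.13 ± 0.027 (SD, n = 4) and 6.19 ± 0.083 (SD, n = 3) in polled, scurred and horned skin. The raw brightness was 34.5 units above local background at most in polled, 26.5 in scurred and 24.9 in horned measurements. Of 32 measurements on chips 1 to 4, 1 was marked, in horned replicate 1, where 1 of the 2 spots of that measurement was well above background. PON1 therefore has no measured difference here, and its RNA was not detected in skin beyond that 1 measurement by this probe, whose assignment rests on a cDNA fragment.

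Males and females were compared in the same fit. PON3 averaged 6.71 ± 1.002 in males (SD, n = 6) and 7.86 ± 1.403 in females (SD, n = 5), and 3 of the 5 females were polled. PON3 was well above background in 1 of the 6 males, the polled one. With horn type in the fit, male minus female was −0.20 for PON3 (SE 0.34), −1.18 with the scanner's ratios, and between −0.90 and 0.097 with single animals or chips left out. It rests mostly on measurements not well above background and on the values that chose the probe, so no p is given and it says nothing on sex. PON2 averaged 12.71 ± 0.33 in males (SD, n = 6) and 12.59 ± 0.23 in females (SD, n = 5), with a fitted difference of 0.28 (SE 0.15, 95% interval −0.080 to 0.64, adjusted p 1.0 in limma). PON2 did not pass, in a comparison where 3 of 16309 probes did (0.0184%). Its value was −0.019 without polled replicate 2 and 0.45 without scurred replicate 2.

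Skin of the control site, which the choice of PON3 did not use, also gave PON3 signal. On chip 5 the horn site and the control site of polled replicate 3 had log2 levels of 9.87 and 9.07, and those of scurred replicate 2 had 7.10 and 8.27. The horn-site levels of these RNAs on their first chips were 9.90 and 6.85. All 8 PON3 measurements of chip 5 were well above background, so PON3 was detected outside the horn-forming region in both animals. PON3 ran in opposite directions between sites after normalisation. In the polled animal the horn site stood above the control site by 0.89 and 0.71 in the 2 dye orders (mean 0.80). In the scurred animal it stood below, at −0.97 and −1.37 (mean −1.17). The raw brightness of the polled animal was 482 (Cy5) and 745 (Cy3) at the horn site and 604 in both dyes at the control site, so the order of its sites differed between dyes before normalisation. In the scurred animal it was 31.0 (Cy5) and 123 (Cy3) at the horn site, against 178 (Cy5) and 323 (Cy3) at the control site, lower at the horn site in both dyes. Within a dye the sites of an animal lie on different arrays, so these raw orders also carry the brightness of each array.

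The mean of both animals for PON3, horn site minus control site, was −0.19 (SE 0.58, n = 2 animals). The horn-site levels of both animals were known when the probe was chosen, so neither an interval nor a p is given. None of the 16422 probes tested in limma on chip 5 passed (0%), and 4.90% had an unadjusted p under 0.05. The difference between the animals was not tested, as each is 1 animal.

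PON2 had log2 levels of 12.51 at the horn site and 12.69 at the control site in the polled animal, and 12.68 and 12.81 in the scurred animal. Its mean horn site minus control site value was −0.16 (SE 0.10, 95% interval −0.48 to 0.17, adjusted p 0.948 in limma, n = 2 animals). With 2 animals this SE rests mostly on the spread that limma takes from all tested probes. It is thus no measure of the spread of PON2 between animals. In the scurred animal the 2 dye orders of PON2 disagreed in sign, at −0.53 and 0.26. PON1 was not well above background in any RNA of chip 5.

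**Figure D4:**
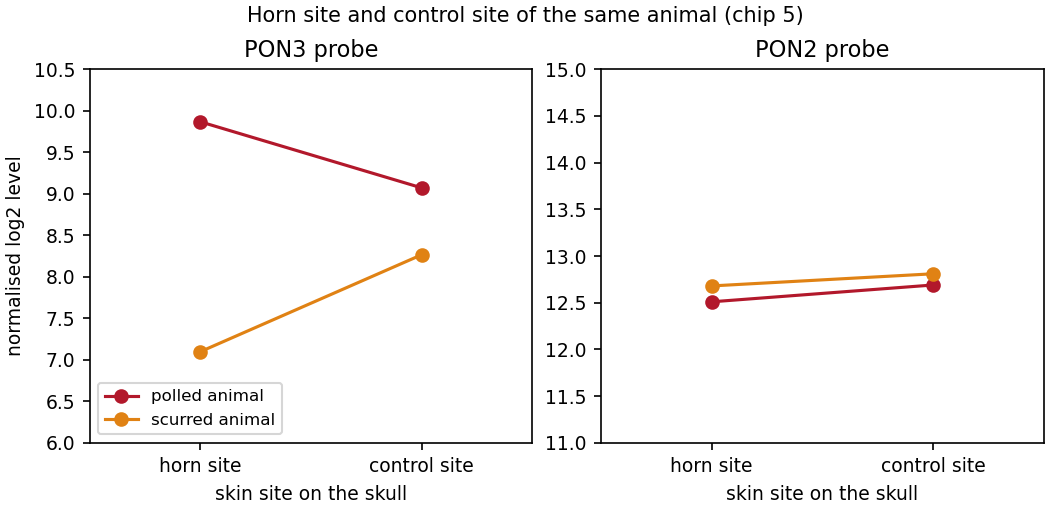
Normalised log2 level (vertical axis) at the horn site (left) and the control site (right) of the polled and the scurred animal of chip 5, for the PON3 and PON2 probes. The PON3 lines run in opposite directions without crossing (9.87 and 9.07 in the polled animal, 7.10 and 8.27 in the scurred animal), while the PON2 levels stay between 12.51 and 12.81.

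Among the named genes, those most like PON3 were taken as the 3 with the highest Pearson correlation over the 8 differences of polled and scurred animals from their horned partners, out of 12756 probes with a symbol. They were TARS3, a threonyl-tRNA synthetase (r 0.96), ITGA7, an integrin chain that binds laminin (r 0.94), and ABCB9, a lysosomal peptide transporter (r 0.94). These points share horned animals and chips, and those of PON3 are values that chose the probe. The highest of 12756 correlations over only 8 points are large by selection alone. They are therefore descriptions, and no shared regulation is read from them. TARS3 stood at 0.38, 0.79, 0.95 and 0.35 in the polled animals and between −0.076 and 0.24 in the scurred animals, a smaller range than that of PON3. ITGA7 lay between −0.056 and 0.46 in polled and between −0.86 and −0.26 in scurred animals. For PON2 the most alike were METTL25B, a methyltransferase-like gene (r 0.98), PPP4R4, a regulatory subunit of protein phosphatase 4 (r 0.97), and UBE2J1, a ubiquitin-conjugating enzyme of the endoplasmic reticulum (r 0.96).

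**Figure D5:**
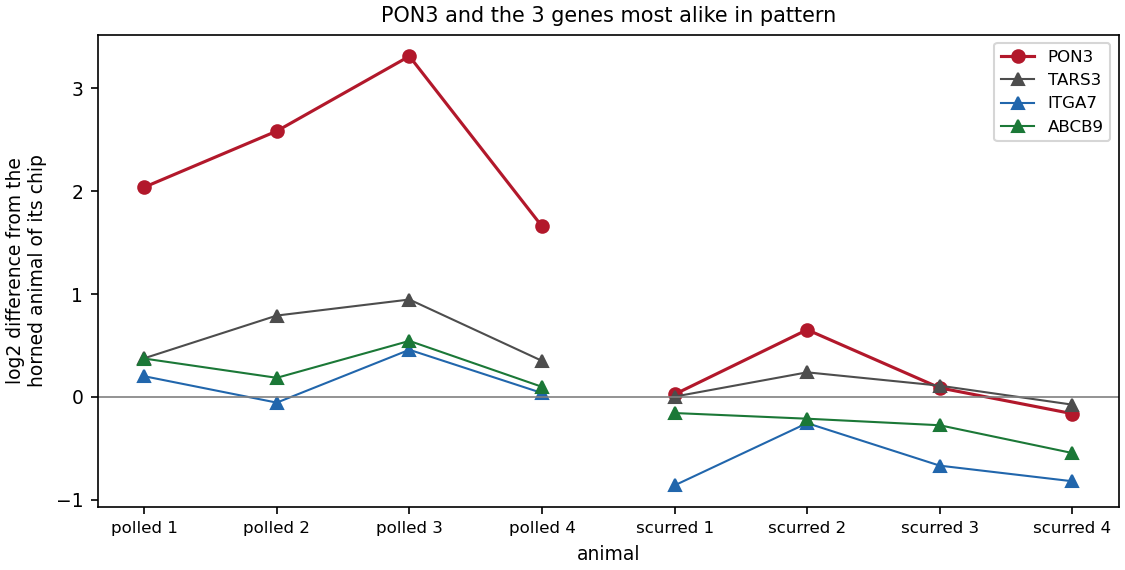
Log2 difference of each polled and each scurred animal from the horned animal of its chip (vertical axis) for PON3 and for the 3 genes whose pattern was most like it, TARS3, ITGA7 and ABCB9; lines join animals of a horn type and carry no order. PON3 reaches 1.66 to 3.31 in polled animals, against 0.95 at most for TARS3, the most alike of the 3.

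The genes around the cluster on chromosome 4 were not called between horn types. The list of 14 neighbours reaches beyond the gene order given above, to genes such as CALCR. Of these 14, 13 had a probe and 9 were tested, and none of the 9 passed in any horn-type comparison. Their median polled minus horned difference was 0.051, with 5 above 0 and 4 below, beside 0.0099 over all probes. Single neighbours ranged from −1.28 to 0.59 in that comparison, and from −0.48 to 1.33 in scurred minus polled. The values of −1.28 and 1.33 belong to the list but to none of the genes named here. Next to the cluster, PPP1R9A, a neuronal actin-binding protein, was well above background in 2 of 11 animals and ASB4, an ubiquitin ligase subunit, in 1, so neither was tested there. SGCE, a sarcoglycan, stood at −0.60 (SE 0.22, adjusted p 0.517, limma) in polled minus horned skin. PDK4, a kinase that inhibits pyruvate dehydrogenase, stood at 0.59 (SE 0.32, adjusted p 0.600, limma). PEG10 had no probe under that symbol.

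Other genes that act with paraoxonases or share their chemistry gave no called difference between horn types or sites in limma's tests. At an unadjusted p under 0.05 in polled minus horned skin there were 1 of 12 HDL genes, 3 of 24 antioxidant enzymes, 0 of 18 esterases, 2 of 11 lipoxygenase and eicosanoid enzymes, 0 of 11 regulators and 2 of 9 neighbours, beside 9.17% of all probes. Of 15 genes of HDL and lipid transport 12 were tested, with a median polled minus horned difference of −0.48, 3 above 0 and 9 below. CLU, a lipoprotein-borne chaperone, stood at −0.77 (SE 0.38, adjusted p 0.574, limma), APOA1, the main protein of HDL, at −0.42 (SE 0.34, adjusted p 0.731) and APOE, a ligand for lipoprotein uptake, at −0.071 (SE 0.23, adjusted p 0.944). The HDL transporter ABCA1 was well above background in 2 animals, and the HDL receptor SCARB1 in 0. The median of the list was 0.31 for scurred minus polled and −0.12 for scurred minus horned.

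The 24 antioxidant enzymes tested had a median polled minus horned difference of 0.12, 16 above 0 and 8 below. SOD1, the cytosolic superoxide dismutase, stood at 0.49 (SE 0.18, adjusted p 0.517, limma) and GPX3, an extracellular glutathione peroxidase, at 0.53 (SE 0.33, adjusted p 0.642). PRDX6, a peroxiredoxin, stood at 0.36, SOD3, the extracellular dismutase, at −0.31, and CAT, catalase, at −0.18. The 18 esterases and other hydrolases tested had a median of 0.090, 11 above 0 and 7 below. EPHX2, an epoxide hydrolase, stood at 0.92 (SE 0.54, adjusted p 0.621, limma) and the carboxylesterases CES1 and CES2 at 0.16 and −0.41. BCHE, butyrylcholinesterase, stood at −0.28 and MGLL, monoglyceride lipase, at 0.21.

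Among 11 lipoxygenase and eicosanoid enzymes tested the median was −0.038, 5 above 0 and 6 below. ALOX15, a lipoxygenase of epithelial and myeloid cells, stood at 2.14 (SE 0.98, adjusted p 0.565, limma) and ALOX5, which starts leukotriene synthesis, at −0.71 (SE 0.24, adjusted p 0.494). PTGDS, a prostaglandin D synthase, stood at −0.61, PTGS2, an inducible cyclooxygenase, at −0.27 and ALOX12B, a lipoxygenase of the epidermal barrier, at −0.038. The 11 transcription factors and regulators linked to paraoxonase genes had a median of −0.0090, 5 above 0 and 6 below. AHR, the aryl hydrocarbon receptor, stood at −0.50 (SE 0.24, adjusted p 0.571, limma), SREBF2, a sterol regulator, at −0.33, PPARG, a lipid-sensing nuclear receptor, at 0.16, SP1 at 0.084 and NFE2L2, a regulator of antioxidant genes, at −0.0090.

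Markers of the labelled tissue were detected: 8 of 9 basal keratinocyte genes and 9 of 10 dermal fibroblast genes were well above background in all 11 animals, and TWIST2 was in none. Hepatocyte genes, listed because liver is the known main source of PON1 and PON3, were detected in part. Of 12 on the array, APOB, APOH and CYP2E1 were well above background in no animal, FGB was in 1, ALB and SERPINA1 were in 9 of 11, and 2 genes were in all. In polled minus horned skin 7 of the 8 tested stood above 0 (median 0.14, highest 1.38), 2 had an unadjusted p under 0.05 and none was called in limma. Their mean level was 6.72 to 7.08 in polled, 6.83 to 7.004 in scurred and 6.74 to 6.82 in horned animals, so the groups overlapped. Their part in the PON3 difference was not tested. The skin holds several cell types, and in such bulk samples fewer cells of a type and less RNA per cell cannot be told apart.

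Several marker lists lay mostly above 0 in polled minus horned skin. Sweat gland genes had a median polled minus horned difference of 1.11, 10 of 11 above 0, and a mean level of 9.72 to 10.36 in polled, 9.45 to 10.23 in scurred and 9.14 to 9.31 in horned animals. FOXA1 (1.73), KRT7 (1.25), KRT18 (1.11) and KRT19 (1.16) stand among them. Genes of the hair shaft and its inner sheath had a median of 0.70, 8 of 10 above 0, with levels of 7.61 to 9.94 in polled, 7.65 to 8.17 in scurred and 7.65 to 8.002 in horned animals. Their scurred minus polled median was −0.61, with 9 of 10 below 0. Sebaceous gland genes had a median of 0.49, 9 of 13 above 0, and levels of 9.28 to 10.13 in polled, 8.88 to 9.85 in scurred and 9.04 to 9.23 in horned animals. Medians were 1.70 for red cell genes (5 of 5 above 0), 1.67 for cornified epidermis (8 of 8), 1.55 for skeletal muscle (10 of 10), 1.396 for melanocyte (6 of 6) and 1.32 for basal keratinocyte genes (8 of 9). Single animals differed widely. In polled replicates 1 to 4 the skeletal muscle median was 4.13, −0.81, 1.53 and 2.12. The red cell median was 3.25, 0.50, 1.11 and 0.48, and that of cornified epidermis 2.25, 1.405, 0.11 and 0.91. Muscle levels were 9.19 to 14.71 in polled and 7.5 to 12.13 in horned animals. An unadjusted p under 0.05 in limma was found for 6 of 11 sweat gland, 5 of 10 hair and 3 of 13 sebaceous genes. It was found for 2 of 5 red cell, 1 of 9 basal keratinocyte, 0 of 8 cornified, 0 of 10 muscle and 0 of 6 melanocyte genes. The share over all probes was 9.17%. None of these genes passed the adjusted threshold, and the part of these lists in the PON3 difference was not tested.

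Per animal, beside PON3 differences of 2.04, 2.59, 3.31 and 1.66 in polled replicates 1 to 4, the median difference of the sweat gland list was 0.10, 1.25, 0.71 and 1.17. That of the hair list was 0.021, 1.34, 0.0061 and 0.36, and that of the sebaceous list 0.027, 1.33, 0.23 and 0.27. Beside PON3 differences of 0.025, 0.65, 0.088 and −0.16 in scurred replicates 1 to 4, the sweat gland medians were −0.13, 1.10, 0.42 and 0.36. The hair medians were 0.042, 0.073, −0.037 and −0.060, and the sebaceous medians 0.072, 0.34, −0.15 and 0.013. Polled replicate 2 had the highest median of each of the 3 lists among the 8 animals, and scurred replicate 2 the highest of each among scurred animals. The basal keratinocyte list shared this, with 1.94 in polled replicate 2 and 1.55 in scurred replicate 2. The cornified epidermis list did not, as its highest median was 4.59 in scurred replicate 1.

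Dermal, immune, fat and vessel lists had medians below 0. Fibroblast genes had a median polled minus horned difference of −1.10, 9 of 9 below 0, with levels of 12.75 to 13.90 in polled, 13.26 to 14.41 in scurred and 14.12 to 14.26 in horned animals. Macrophage and dendritic cell genes had a median of −0.81, 10 of 11 below 0, with levels of 10.09 to 11.41 in polled, 11.01 to 11.86 in scurred and 10.88 to 11.93 in horned animals. AIF1 was the called one (−1.71, SE 0.11, adjusted p 0.0175, limma). The medians were −0.11 for adipocyte (3 of 7 above 0) and −0.27 for endothelium genes (1 of 9), with no gene called. An unadjusted p under 0.05 in limma was found for 4 of 9 fibroblast and 3 of 11 macrophage and dendritic cell genes. It was found for 0 of 7 adipocyte and 1 of 9 endothelium genes, beside 9.17% of all probes. The part of these lists in the PON3 difference was not tested. Between sites, 9 of 9 skeletal muscle genes and 11 of 11 macrophage and dendritic cell genes stood above 0 (medians 2.25 and 0.76), as did 9 of 9 endothelium genes (median 0.42). In the same comparison 8 of 8 hepatocyte genes (median −0.14) and 5 of 6 melanocyte genes (median −0.83) stood below 0. An unadjusted p under 0.05 in limma was found for 5 of 11 macrophage and dendritic cell genes and 3 of 6 melanocyte genes. It was found for 1 of 9 skeletal muscle, 0 of 9 endothelium and 0 of 8 hepatocyte genes, beside 4.90% of all probes. None of these genes was called, and the part of these lists in the PON3 site values was not tested.

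Over the whole series, 62.2% to 73.8% of spots of an array and dye were well above background, 2 at most were saturated and 0.0442% at most carried a flag. Arrays with exchanged dyes had correlations across probes of −0.94 to −0.82 (chips 1 to 4), −0.70 and −0.66 (chip 5). Scurred replicate 1 correlated with the other animals at a mean of 0.927, against 0.952 to 0.967 for the rest. Without it, PON3 stood at 2.34 for polled minus horned and −2.17 for scurred minus polled.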

How the data were processed

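The deposited scanner files give, for both dyes, the mean intensity of each spot and that of its local background. They also hold the software's log10 ratio of red over green after background subtraction, detrending and dye normalisation, per the file headers. The submitters' processing notes name Agilent Feature Extraction 9.5.1. The table deposited for the series holds the same log10 ratios (slope 1 in 14 columns, −1 in 6, column medians −0.019 to 0.00971) with blanks where the ratio is 0.

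Background was removed by normexp (offset 50) and arrays were normalised by loess in limma 3.58.1 (R 4.3.3, version 1.17.8 of data.table; Python 3.11.15 and matplotlib 3.10.9 for names and plots). Flagged spots were left out and duplicate spots averaged. Levels come from channels separated after loess and Aquantile scaling over all 20 arrays. Tests covered probes well above background in 3 or more of 11 animals (16309 probes), or in 2 or more of 4 RNAs on chip 5 (16422 probes). Arrays of chips 1 to 4 were reduced to 8 differences from the horned animal of the chip with a dye coefficient, then fitted with terms for polled, scurred and male and with horned animals as blocks (5 residual degrees of freedom). Limma's moderated tests were two-sided, adjusted by Benjamini and Hochberg over all tested probes (threshold 0.05). Site values were the mean of 2 animals. Scripts were tested on simulated data. Intervals are 95% intervals of the fit, whose precision is limited by the few animals.

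The replicate number is the chip. Deviations from the group means of polled and scurred animals on 1 chip correlated at 0.24, 0.28, 0.43 and −0.077 (median −0.11 for other chips), and the block comes from the shared chip in the labels. Groups and the join of arrays to animals were read from the labels. Symbols were found for 16073 of 21475 probes: 130 through the symbol itself, 48 through an earlier symbol, 3504 through an accession, 9611 through a gene ID and 2780 through a human gene that the description names. No genome was used. The members and gene lists were chosen with earlier results of these data known. Named genes were the members, for each tested member the 3 genes most correlated with it, and up to 5 genes per list named whatever their values, with 1 probe a gene, the brightest. Alternatives covered background correction, normalisation, filters, flags, the sex term, the block, and animals or chips left out.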

Additional observations from a re-analysis of the deposited data

Results flagged for a closer look

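PON3 moved in opposite directions between skin sites in the 2 animals of chip 5. Horn site minus control site was 0.7956 on the log2 scale in the polled animal (0.89 and 0.71 in its 2 dye orders) and −1.168 in the scurred animal (−0.97 and −1.37). Each horn type is 1 animal here, and the difference between them was not tested. PON2 on the same arrays gave −0.18 in the polled and −0.14 in the scurred animal.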

How the results depend on the processing

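The contrasts polled minus horned and scurred minus polled chose the PON3 probe, so a kept direction is no support for it. PON3 kept its direction in both under every alternative run. Its size moved, to 4.73 and −3.86 with the deposited log ratio, and to 3.19 and −2.86 with a normexp offset of 10, an alternative chosen after seeing the data; the offset adds a constant to dim spots by construction. The log ratio also moved scurred minus horned to 0.87 and male minus female to −1.18. With single animals or chips left out, PON3 ran from 1.74 to 2.58 in polled minus horned and from −2.54 to −1.404 in scurred minus polled, the last without polled replicate 2. PON3 was not tested where only probes well above background in all animals were kept. With no replicate block, PON3 stood at 2.36 in polled minus horned and −2.19 in scurred minus polled, and 5 probes were called between males and females. The counts of calls between horn types did not change. In that fit each horned animal enters as 0 by construction, with no spread of its own, so the calls without a block are not a check of the block. PON2 was called under no alternative run (0.012 to 0.35 in polled minus horned with animals or chips left out). Counts of called probes over the array moved as follows, and the cause was not tested. Polled minus horned gave 0 with the deposited log ratio and with median centring, and 0 to 1 with animals or chips left out (0 in 13 of 15 fits). Scurred minus horned gave 1 with median centring and 0 to 1 with animals or chips left out. Scurred minus polled gave 1 with no sex term. Male minus female gave 6 with the deposited log ratio, 5 with the offset of 10, 1 with probes well above background in all animals, and 1 to 4 with animals or chips left out. Median centring moved the site median of all probes to −0.12 and the site value of PON2 to −0.53, which was not called (adjusted p 0.539, limma). The series table gave no separate run, as its values are the scanner's log ratios. The dimness of PON3 in horned and most scurred skin limits what can be said of its size there, and no alternative measures PON1.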
